A study of Mus musculus with 20 samples.

Results

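The genes described here are 10 members of the BMP and TGF-beta signalling pathways, namely the ligands Bmp2, Bmp4, Bmp7 and Tgfb1, the receptor Bmpr1a, the inhibitory Smads Smad6 and Smad7, and the target genes Id1, Id2 and Id3. They were taken by gene name from the annotation in the scanner files and were read by 15 of the 56605 probes of the array, out of 25034 named genes in all. RNA of intestinal tissue was measured in 20 C57BL6/j mice, with 1 one-colour Agilent array for each mouse. Cre control mice (6 arrays) carried VillinCreER/0, a tamoxifen-inducible Cre recombinase driven by the Villin promoter, which is active in the gut epithelium and not in the tissue beneath it. BRAFV600E mice (6 arrays) carried in addition the BrafV600E-LSL/+ allele, from which Cre turns on the mutant kinase. According to the study's methods, both groups were young adult animals that received tamoxifen and were killed a few days after the last injection. MEKi mice (4 arrays) received PD184352, an inhibitor of the kinase MEK, and Vehicle mice (4 arrays) received the carrier, in both cases after a shorter course of tamoxifen. The labels do not give the genotype or age of the MEKi and Vehicle mice, and the figure legends of the study describe them as induced mutant mice. The pieces of tissue were whole, so that epithelium, stroma, muscle and immune cells were measured together, and fewer cells of a type cannot be told apart from less RNA per cell.

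BMP ligands bind a complex of type I and type II receptors at the cell surface, which phosphorylates Smad1, Smad5 and Smad9, while TGF-beta and activins act through their own receptors on Smad2 and Smad3. Both branches use Smad4 and switch on their own inhibitors, Smad6 and Smad7. In the intestine, BMP signalling is highest towards the villus and is kept low around the crypt base by secreted antagonists, where it would otherwise restrain the stem cells. Loss of BMPR1A causes juvenile polyposis in people.

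Sequences of some of the 10 genes are shown first. Smad proteins are known to bind the box GTCT, its palindromic pair GTCTAGAC, and the GC-rich motif GGCGCC. These letters were searched on both strands of the RefSeq promoter windows of build GRCm38.p6, each running from 250 bases before to 50 bases after a gene's start, and every GTCTAGAC also holds the box GTCT. A window was found for 6 of the 10 genes (Bmp4, Bmpr1a, Id2, Id3, Smad6 and Tgfb1). GTCTAGAC stood in 1 of the 6, that of Smad6, against 0.213% of the 32851 windows searched. GGCGCC stood in 2 of the 6, those of Id2 and Bmpr1a, against 11.9% of all windows. The box GTCT stood in all 6, and in 88.0% of all windows. The 3 promoters with the longer motifs are given 5′ to 3′ on the strand of the gene, with these motifs in capitals. Among these 3 genes, only Bmpr1a passed the test described below, in BRAFV600E against Cre control. Whether the motifs bear on the levels was not tested.
Smad6, chr9:64022056-64022309, minus strand, motif beginning 4 bases before the start: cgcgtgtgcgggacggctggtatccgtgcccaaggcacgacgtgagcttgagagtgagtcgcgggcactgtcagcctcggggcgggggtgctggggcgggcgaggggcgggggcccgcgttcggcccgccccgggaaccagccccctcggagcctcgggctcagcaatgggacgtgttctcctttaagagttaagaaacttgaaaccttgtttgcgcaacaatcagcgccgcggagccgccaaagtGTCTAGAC
Id2, chr12:25096093-25096342, minus strand, motif beginning 231 bases before the start: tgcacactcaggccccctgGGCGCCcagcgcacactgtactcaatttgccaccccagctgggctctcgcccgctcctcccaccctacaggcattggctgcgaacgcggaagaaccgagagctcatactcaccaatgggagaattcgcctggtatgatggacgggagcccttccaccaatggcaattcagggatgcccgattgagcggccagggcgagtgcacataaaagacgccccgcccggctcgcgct
Bmpr1a, chr14:34502547-34502796, minus strand, motif beginning 198 bases before the start: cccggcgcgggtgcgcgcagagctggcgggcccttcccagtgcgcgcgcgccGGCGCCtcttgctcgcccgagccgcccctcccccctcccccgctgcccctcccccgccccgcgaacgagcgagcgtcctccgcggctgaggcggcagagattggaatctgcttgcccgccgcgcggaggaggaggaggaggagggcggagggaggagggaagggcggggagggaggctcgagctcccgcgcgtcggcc
The single probe that measured Smad6 lay at chr9:63801378-63801437 on the minus strand of build mm9, the build of the scanner files, and is given in full as the sequence behind every Smad6 value.
Smad6 probe, 60 bases: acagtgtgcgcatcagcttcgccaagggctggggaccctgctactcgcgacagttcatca
A match of letters describes the window and does not show that a Smad protein binds there.

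Between 60.8% and 76.8% of the spots of an array were well above background, and arrays of the same group correlated with Pearson's r of 0.945 to 0.992 across the probes that were well above background on all of them. Levels are log2 processed intensities relative to the 75th percentile of the array, so that a level of 0 equals that percentile, and levels of different probes cannot be set against each other. The ERK target Etv4 was 2.50 higher on the log2 scale in BRAFV600E than in Cre control (SE 0.27, adjusted p = 0.000172 in limma) and differed by -2.95 in MEKi from Vehicle (SE 0.23, adjusted p = 0.00329 in limma), with no overlap in either comparison. Braf itself, the gene that carries the mutation, differed by 0.42 (SE 0.20, adjusted p = 0.171 in limma) and by -0.50 (SE 0.17, adjusted p = 0.189 in limma). Whether its probe covers the mutated base was not analysed here, so that its level does not check the labels. The 7 epithelial markers averaged 5.61 to 6.54 on all arrays, which fits the tissue label. BRAFV600E replicates 1 and 2 were on slide 1 together with all Cre control arrays, BRAFV600E replicates 3 to 6 lay on slide 2, and the MEKi and Vehicle arrays lay in separate rows of another, so that row and treatment cannot be told apart. Y-linked genes were high on 3 of 6 Cre control, 4 of 6 BRAFV600E, 2 of 4 Vehicle and all 4 MEKi arrays. Vehicle replicate 2 had exocrine pancreas markers at a mean level of 7.52, against -4.28 to -2.81 on the other 19 arrays. MEKi replicate 2 had endothelial markers at -2.70, against -1.35 to -0.98 on the other 3 MEKi arrays, and B and plasma cell markers at -1.57, against -0.20 to 0.51.

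The comparison of BRAFV600E with Cre control asks which of these genes differed shortly after the mutant kinase was switched on in the epithelium. Of the 10 genes, Bmpr1a alone passed the test, being higher in BRAFV600E by 0.74 on the log2 scale, or 1.67-fold. Smad6 was lower in every BRAFV600E array than in every Cre control array but did not pass the test, and Id2 and Bmp2 had lower means with overlapping groups. The means of Bmp4, Bmp7, Id1, Id3, Smad7 and Tgfb1 differed by at most 0.15. A gene was called when its limma p, adjusted by Benjamini-Hochberg over all genes tested, was under 0.05. All 10 genes passed the filter on dim probes, and 1 of them was called (10.0%), while 12.5% of all 19041 tested genes were called, 6.19% as higher and 6.27% as lower. This even split depended on the setting, since 49.7% of the called genes were higher as reported, 34.3% with normexp background, 98.1% without scaling, 30.2% with slide as a block and 26.3% within slide 1. The share called among the 10 was thus near that of all genes. At an unadjusted p under 0.05 there were 4 of the 10 genes (40.0%) and 30.1% of all genes. Groups without overlap between their arrays were seen for 2 of the 10 genes, Bmpr1a and Smad6, and for 7.36% of all genes. The median log2 difference was -0.10 over the 10 genes and -0.02 over all genes.

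**Figure D1:**
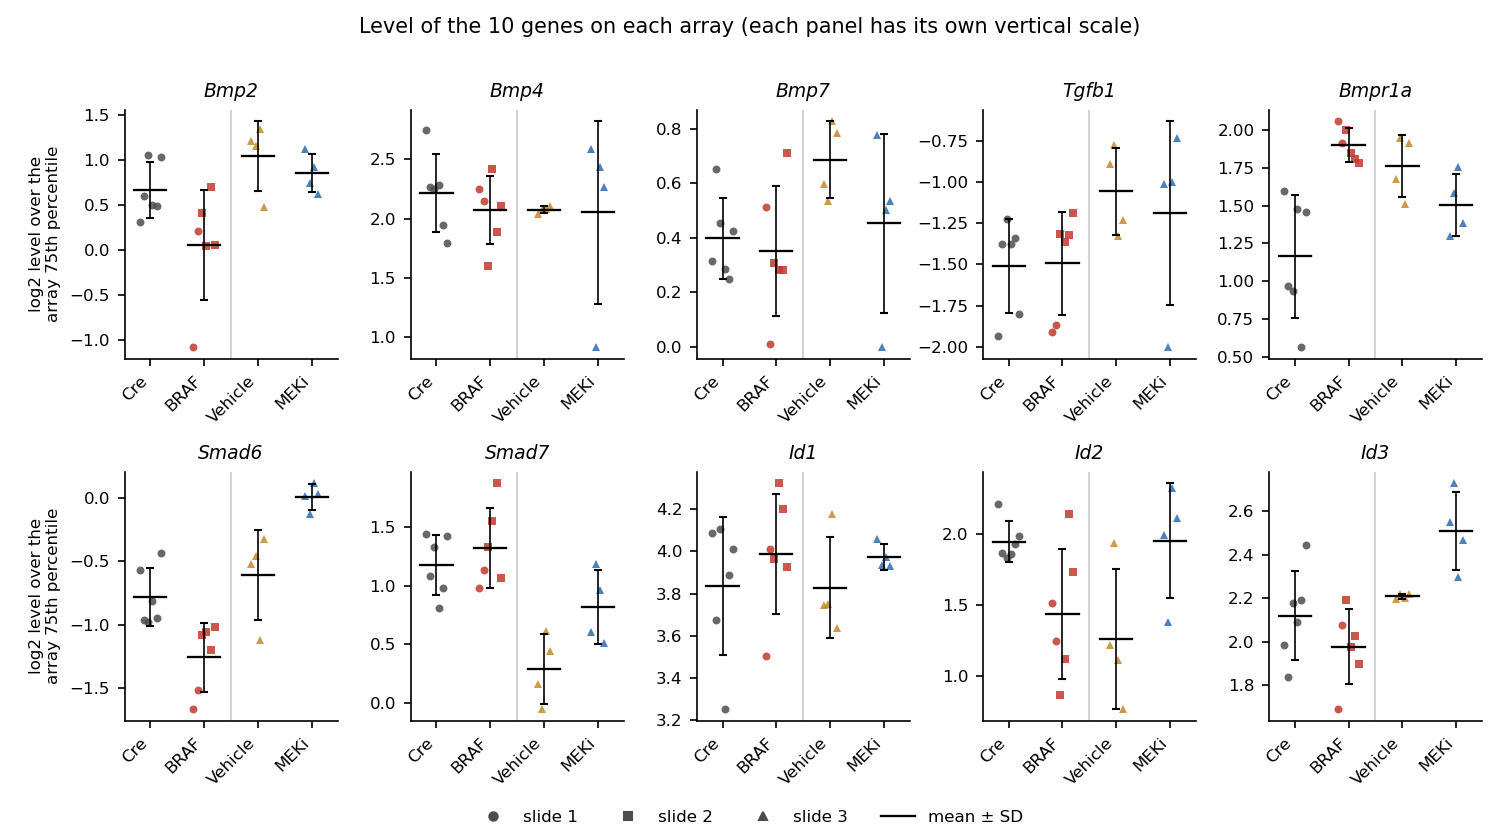
Level of each of the 10 genes on each of the 20 arrays, as log2 intensity over the 75th percentile of the array (vertical axes, a separate scale for each gene), by group. Points are arrays, their shapes give the slide, and bars give the group mean ± SD. All 6 BRAFV600E arrays lay above all Cre control arrays for Bmpr1a and below them for Smad6, and all 4 MEKi arrays lay above all Vehicle arrays for Smad6 and Id3.

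Bmpr1a is the type I receptor through which BMP2 and BMP4 signal. Its level was 0.56 at the lowest, 1.21 at the median and 1.60 at the highest of the 6 Cre control arrays, and 1.78, 1.88 and 2.06 on the BRAFV600E arrays. The Cre control arrays spread over a wider range (SD 0.41) than the BRAFV600E arrays (SD 0.11), and every BRAFV600E array lay above every Cre control array. The difference of 0.74 had a 95% interval of 0.35 to 1.12 (SE 0.18, n = 6 and 6, adjusted p = 0.0196 in limma). It remained called when any 1 of the 12 arrays was left out, with limma adjusted p between 0.0142 and 0.0476. With slide as a block, which leaves BRAFV600E replicates 1 and 2 to be set against the 6 Cre control arrays of the same slide, the difference was 0.82 and the adjusted p in limma was 0.0693. Within slide 1 alone the same difference had an adjusted p of 0.159 in limma. The probe behind these values lay at chr14:35224571-35224630 (mm9), and a second, dimmer probe of the gene, at chr14:35260969-35261028, gave 0.30 (SE 0.49) with overlapping groups. The mean over both probes, 0.52, was not called (adjusted p = 0.210 in limma).

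Smad6 is the inhibitory Smad that acts mainly on the BMP branch and is itself switched on by BMP signals. On the Cre control arrays it ranged from -0.98 through a median of -0.88 to -0.43. On the BRAFV600E arrays it ranged from -1.67 through -1.14 to -1.02, so that the groups were separated by a narrow gap. The difference of -0.48 (95% interval -0.82 to -0.14, SE 0.16) had an adjusted p of 0.0636 in limma, and no array left out brought it under the threshold. The BRAFV600E arrays that shared a slide with the controls held the lowest values, -1.67 and -1.52, while the 4 on the other slide lay between -1.20 and -1.02. Accordingly the difference grew to -0.81 with slide as a block and was then called (adjusted p = 0.0182 in limma), although within slide 1 alone it was not (adjusted p = 0.0701 in limma).

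Smad7, the inhibitory Smad of both branches, ranged from 0.81 to 1.44 in Cre control and from 0.98 to 1.87 in BRAFV600E. The groups overlapped, with a difference of 0.15 and a 95% interval of -0.24 to 0.53. Its second, dimmer probe gave 0.03 (SE 0.16). With slide as a block the difference of the brighter probe was -0.12.

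The Id proteins bind and inactivate transcription factors of the basic helix-loop-helix family, and their genes are among the most direct targets of BMP signalling. Id2 had a level of 1.83 at the lowest, 1.90 at the median and 2.21 at the highest of the Cre control arrays, against 0.87, 1.38 and 2.14 on the BRAFV600E arrays. Of the BRAFV600E arrays, 5 lay below every control array, and replicate 5, at 2.14, lay above all control arrays but 1. The difference was -0.51 (95% interval -0.93 to -0.09, SE 0.19, adjusted p = 0.0997 in limma), and without BRAFV600E replicate 5 it was -0.65 and called (adjusted p = 0.0292 in limma). The second Id2 probe gave nearly the same difference, -0.50 (SE 0.20), and the mean over both probes was called (adjusted p = 0.0395 in limma). The fit without BRAFV600E replicate 5 and the mean over probes were the only 2 of 24 alternatives in which Id2 was called. Blocking on slide gave -0.57 and left Id2 uncalled (adjusted p = 0.230 in limma). Nor was Id2 called within slide 1 (adjusted p = 0.121 in limma) or with the Y-linked covariate (adjusted p = 0.146 in limma).

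Id1 and Id3 did not show this difference. Id1 ranged from 3.25 to 4.10 in Cre control and from 3.50 to 4.32 in BRAFV600E, a difference of 0.15 with a 95% interval of -0.24 to 0.54. Id3 ranged from 1.84 to 2.44 in Cre control and from 1.69 to 2.19 in BRAFV600E, a difference of -0.14 with a 95% interval of -0.43 to 0.14. For both genes the groups overlapped. Whether Id2 differed from Id1 and Id3 in its response was not tested.

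Some markers of other cell types also differed in this comparison, in which 12.5% of all genes were called. An unadjusted p under 0.05 in limma was seen for 30.1% of all genes. Of the 6 T cell markers 2 were called, both lower in BRAFV600E (Cd3g and Cd8a). In this list 5 markers had lower means and 1 a higher mean. The mean level of the list was 0.51 to 1.60 in Cre control and -0.37 to 1.18 in BRAFV600E. Of 5 enteric neuron and glia markers 2 were called (S100b and Uchl1) and all 5 had lower means in BRAFV600E. The mean level of these 5 did not overlap between the groups, at -1.70 to -1.07 in Cre control and -2.43 to -1.77 in BRAFV600E. Of the 6 smooth muscle markers 2 were called, both higher (Des and Actg2), and all 6 had higher means. The mean level of this list was 2.78 to 3.44 in Cre control and 3.01 to 3.91 in BRAFV600E. The 6 fibroblast and the 6 endothelial markers gave 0 called genes in limma, and of these 12 genes 1, an endothelial marker, had an unadjusted p under 0.05. Of the 6 macrophage markers 1 was called, as lower, and all 6 had lower means. Of the 7 epithelial markers 2 were called, as higher, and 4 had higher and 3 lower means. In limma 0 of the 6 B and plasma cell markers were called (3 of 6 at an unadjusted p under 0.05), and 5 had lower means and 1 a higher mean. In the same test 0 of the 4 exocrine pancreas markers tested were called (1 of 4 at an unadjusted p under 0.05). Every marker of these lists was well above background on at least 1 array of each group. The part of these shifts in the values of Id2, Smad6 and Bmpr1a was not tested.

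Among the ligands, Bmp2 had the largest difference between the means. It ranged from 0.30 through a median of 0.55 to 1.06 in Cre control and from -1.08 through 0.13 to 0.70 in BRAFV600E. BRAFV600E replicate 1 held the value of -1.08 and stood far below the other 5 arrays, which lay between 0.04 and 0.70. The difference was -0.61 (95% interval -1.18 to -0.04, SE 0.26, adjusted p = 0.142 in limma). With slide as a block it was -1.10 (adjusted p = 0.0623 in limma), and within slide 1 the same difference had an adjusted p of 0.127 in limma. Both of these set BRAFV600E replicates 1 and 2, at -1.08 and 0.21, against the Cre control arrays, so that they rest largely on replicate 1. Without BRAFV600E replicate 1, and with no slide block, the difference was -0.38, with an adjusted p of 0.196 in limma.

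Bmp4, which the mesenchyme of the gut produces, ranged from 1.79 to 2.75 in Cre control and from 1.60 to 2.42 in BRAFV600E, a difference of -0.15 with a 95% interval of -0.54 to 0.25. A dimmer probe of the gene gave 0.29 (SE 0.16), the opposite sign, so that no direction can be given. Bmp7 ranged from 0.25 to 0.65 in Cre control and from 0.01 to 0.71 in BRAFV600E. Its difference of -0.05 had a 95% interval of -0.34 to 0.25. Tgfb1, the main TGF-beta of immune cells, ranged from -1.93 to -1.23 in Cre control and from -1.91 to -1.19 in BRAFV600E, with a difference of 0.01 and a 95% interval of -0.37 to 0.40. Its second probe was well above background on 2 of 6 Cre control and 1 of 6 BRAFV600E arrays and was not tested. For these 3 ligands the groups covered nearly the same range.

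**Figure D2:**
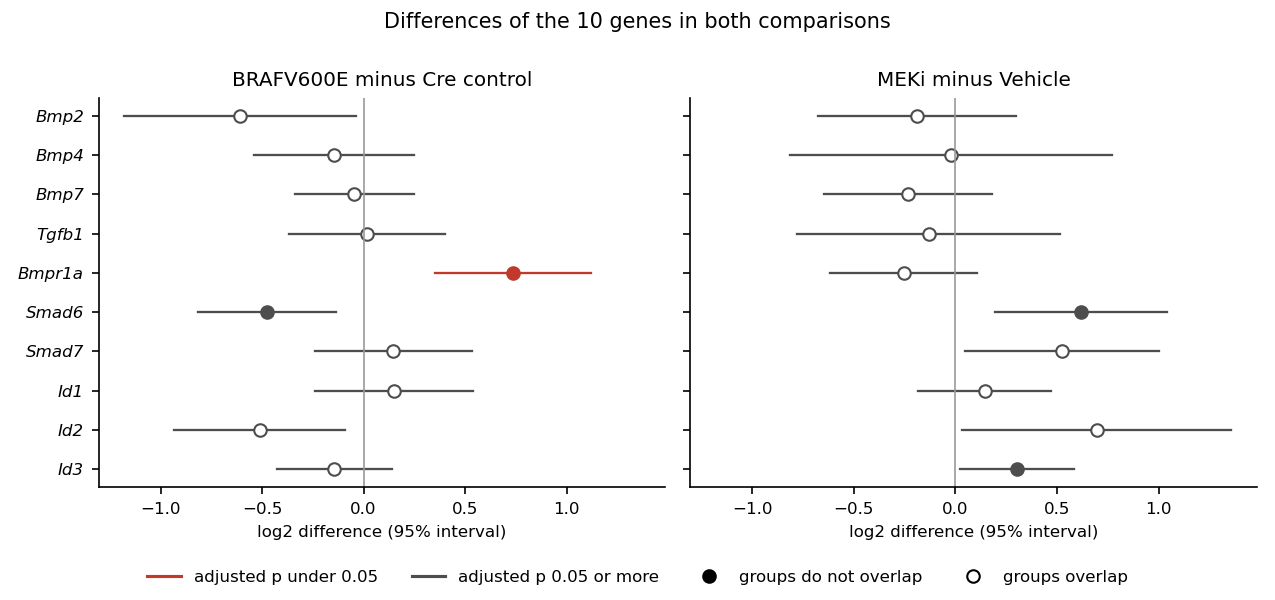
Difference in log2 level for each of the 10 genes (rows) in BRAFV600E minus Cre control (left) and MEKi minus Vehicle (right), with 95% intervals from limma as lines. Red marks an adjusted p under 0.05, and filled points mark groups whose arrays do not overlap. Bmpr1a on the left, at 0.74, is the only red entry, and Smad6 is filled on both sides with opposite signs, at -0.48 and 0.62.

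The comparison of MEKi with Vehicle asks which of the genes differed when MEK was inhibited in mice in which the mutant had been induced. None of the 10 genes passed the test. The 4 MEKi arrays lay above all 4 Vehicle arrays for Smad6, by 0.62 on average, and for Id3, by 0.30. Id2 and Smad7 had higher means in MEKi, by 0.70 and 0.53, with overlapping groups. The ligands and Bmpr1a had differences of -0.25 to -0.02. Of all 19231 genes tested, 1.98% were called, 1.09% as higher and 0.884% as lower, and 0 of the 10 genes were. At an unadjusted p under 0.05 there were 4 of the 10 genes (Id2, Id3, Smad6 and Smad7), or 40.0%, against 16.4% of all genes. Groups did not overlap for 2 of the 10 genes and for 12.2% of all genes, so that separation alone was common in this comparison. The number of the 10 genes called was 0 also without MEKi replicate 2 and without Vehicle replicate 2, the arrays with unusual marker levels.

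Smad6 had levels of -0.52, -0.46, -1.13 and -0.33 on Vehicle replicates 1 to 4 and of 0.01, -0.12, 0.12 and 0.03 on MEKi replicates 1 to 4. The MEKi arrays lay close together and above all Vehicle arrays, of which replicate 3 was the lowest. The difference of 0.62, or 1.54-fold (95% interval 0.20 to 1.04, SE 0.18), had an adjusted p of 0.147 in limma. It was called with array weights, at 0.69 (adjusted p = 0.0486 in limma), and in none of the fits that left out an array.

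Id2 had levels of 1.22, 1.94, 1.11 and 0.76 on the Vehicle arrays and of 1.99, 1.38, 2.32 and 2.11 on the MEKi arrays. Vehicle replicate 2 held the highest value of its group and MEKi replicate 2 the lowest of its own, and the groups overlapped in these 2 arrays. The difference was 0.70 (95% interval 0.03 to 1.36, SE 0.29, adjusted p = 0.282 in limma), and the second probe gave 0.56 (SE 0.26). The mean level of the 6 T cell markers was -0.11 to 0.72 in Vehicle and 0.41 to 1.43 in MEKi, with 0 of 6 called in limma and 3 of 6 at an unadjusted p under 0.05. Other lists differed too. The median log2 difference was 0.63 over the 6 T cell markers and 0.63 over the 6 smooth muscle markers (5 higher and 1 lower, 0 called in limma). It was -0.22 over the 6 fibroblast markers, all 6 of them lower and 0 called in limma. Over the 6 endothelial markers the median was -0.31 (5 lower and 1 higher, 0 called in limma). Over the 6 exocrine pancreas markers it was -2.80 (all 6 lower, 0 called in limma). Of the 5 enteric neuron and glia markers 0 had lower means in MEKi and 0 were called in limma. The medians were -0.15, 0.05 and 0.14 for the epithelial, macrophage, and B and plasma cell lists. The part of any of these lists in the Id2 difference was not tested.

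Id3 had levels of 2.19, 2.22, 2.20 and 2.22 on the Vehicle arrays and of 2.55, 2.73, 2.30 and 2.47 on the MEKi arrays. The Vehicle arrays were almost equal (SD 0.01), and the lowest MEKi array exceeded the highest of them by little. The difference of 0.30 had a 95% interval of 0.02 to 0.58 (adjusted p = 0.273 in limma). Id1 lay between 3.64 and 4.18 in Vehicle and between 3.93 and 4.06 in MEKi, with a difference of 0.14 and a 95% interval of -0.18 to 0.47.

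Smad7 had levels of 0.16, -0.05, 0.61 and 0.44 on the Vehicle arrays and of 0.61, 1.19, 0.97 and 0.51 on the MEKi arrays. MEKi replicates 2 and 3 lay above all Vehicle arrays, while replicates 1 and 4 lay within their upper range. The difference of 0.53 (95% interval 0.05 to 1.00, SE 0.21) had an adjusted p of 0.260 in limma, and the dim second probe gave 0.06 (SE 0.41).

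Bmpr1a had levels of 1.67, 1.95, 1.51 and 1.91 on the Vehicle arrays and of 1.30, 1.58, 1.76 and 1.38 on the MEKi arrays. The groups overlapped, and the difference of -0.25 had a 95% interval of -0.62 to 0.11 (adjusted p = 0.489 in limma). The second, dimmer Bmpr1a probe gave -0.11 (SE 0.40). The increase seen in BRAFV600E over Cre control thus had no counterpart of detectable size here, and the interval still allows a fall of 0.62. Y-linked genes were high on all 4 MEKi arrays and on 2 of 4 Vehicle arrays. With Y-linked signal as a covariate the Bmpr1a difference was -0.09 (adjusted p = 0.911 in limma).

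The ligands gave no separation between MEKi and Vehicle. Bmp2 lay between 0.47 and 1.34 in Vehicle and between 0.62 and 1.12 in MEKi, with a difference of -0.19 (95% interval -0.68 to 0.30). Bmp7 lay between 0.54 and 0.83 in Vehicle, and between 0.00 and 0.78 in MEKi, with a difference of -0.23 (95% interval -0.65 to 0.18). Bmp4 was 2.03 to 2.11 on the Vehicle arrays and 2.59, 0.91, 2.44 and 2.27 on the MEKi arrays. MEKi replicate 2, the array with the low endothelial markers, held the lowest Bmp4 level of all 20 arrays, and also the lowest Tgfb1 level, the other MEKi arrays lying between -1.01 and -0.74. With it the Bmp4 difference was -0.02 (SE 0.34), and without it 0.36 (adjusted p = 0.173 in limma). The dimmer Bmp4 probe gave 0.04 (SE 0.26) on all arrays. Tgfb1 differed by -0.13 with MEKi replicate 2 and by 0.14 without it, and was not called in either fit. The second Tgfb1 probe, well above background on 2 of 4 arrays of each group, gave 0.02 (SE 0.41) on all arrays.

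Both comparisons can be set side by side, since they share no array. Of the 10 genes, 5 had opposite signs in them (Bmpr1a, Id2, Id3, Smad6 and Tgfb1), while 70.2% of the 18578 genes tested in both did. Smad6 alone of the 10 had groups that did not overlap in both comparisons and with opposite signs, which held for 2.76% of all genes. In the order of the 4 group means, Smad6 was highest in MEKi, followed by Vehicle, Cre control and BRAFV600E, and Vehicle and Cre control were the only neighbours that overlapped. Id2 was highest in MEKi, followed by Cre control, BRAFV600E and Vehicle, and all neighbours overlapped. Bmpr1a was highest in BRAFV600E, followed by Vehicle, MEKi and Cre control, and here too all neighbours overlapped. Over the 10 genes, 27 of the 30 pairs of neighbours overlapped, and for 8 genes all of them did. The same count was not made over all genes, so that it cannot be said whether these numbers are usual. The arrays of the 2 comparisons lay on different slides, which cannot be told apart from the difference between the experiments.

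**Figure D3:**
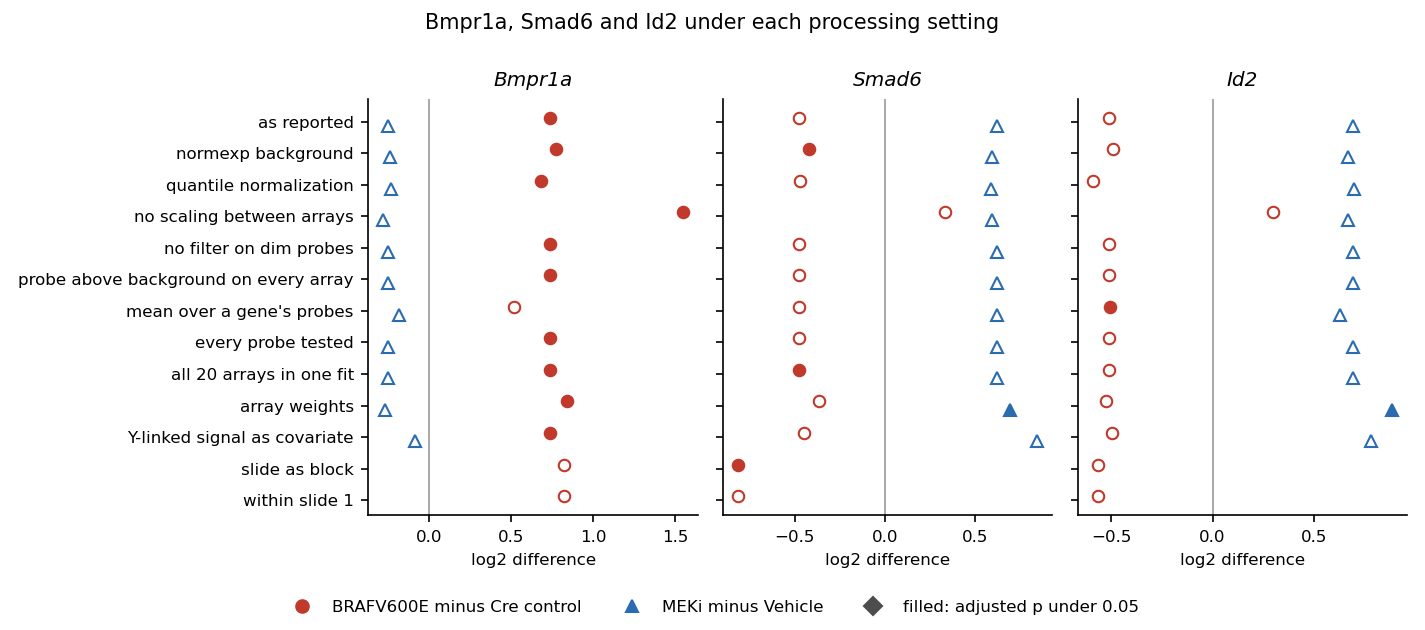
Log2 difference (horizontal axes) of Bmpr1a, Smad6 and Id2 under each processing setting (rows), for BRAFV600E minus Cre control (red circles) and MEKi minus Vehicle (blue triangles). Filled symbols have an adjusted p under 0.05, and the slide settings exist for the first comparison alone. Bmpr1a stayed above 0 in red throughout, at 0.52 to 1.55, while Smad6 and Id2 crossed 0 in red without scaling between arrays, at 0.33 and 0.30, a setting in which the median of all genes was 0.79.

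The other genes of the pathway were read from a list of 73, of which 65 passed the filter on dim probes in the comparison of BRAFV600E with Cre control. Of these, 11 were called (16.9%, against 12.5% of all genes), 5 higher and 6 lower, and the median log2 difference was -0.03, against -0.02 over all genes. The 4 with the largest differences were Bmp8b and Ccn2, which rose in BRAFV600E, and Acvr1c and Bambi, which fell. These 4 were called in every fit that left out an array, with slide as a block, and within slide 1. Bambi was not called without scaling between arrays. Bmp8b and Acvr1c were not tested where a probe had to be above background on every array. The 8 genes that did not pass the filter were Bmpr1b, Gdf6, Gdf7, Gdf11, Inha, Mstn, Smad9 and Sostdc1.

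Of the 8 BMP and GDF ligands tested, 1 was called. Bmp8b, a BMP ligand known from germ cells and brown fat, ranged from -6.82 through a median of -5.04 to -4.25 in Cre control and from -3.07 through -2.54 to -1.43 in BRAFV600E, with no overlap. The rise was 2.82 (SE 0.44, adjusted p = 0.00207 in limma). The probe was well above background on 3 of the 6 Cre control arrays, so that the control level, and with it the size of the rise, is only approximate. Its close relative Bmp8a, with which probes may share signal, differed by -0.17 (SE 0.23) and was not called. Of the 4 TGF-beta and activin ligands tested, Inhba, the subunit of activin A, was called. It ranged from -3.34 to -2.14 in Cre control and from -2.62 to -1.33 in BRAFV600E, with overlap. The rise of 0.89 (SE 0.27) stood at the threshold, with an adjusted p of 0.04996 in limma, and was called in 4 of the 12 fits that left out an array.

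Of the 14 receptors and co-receptors, 1 was called as higher and 3 as lower. Acvr1b, the type I receptor for activins, rose by 0.41 (SE 0.11, adjusted p = 0.0283 in limma), from 1.43 to 1.73 in Cre control to 1.78 to 2.17 in BRAFV600E. It was called in 6 of the 12 fits that left out an array. Acvr1c, a type I receptor for Nodal and GDF ligands, fell by 2.49 (SE 0.39, adjusted p = 0.00229 in limma), from a range of -3.12 to -1.50 in Cre control to one of -6.55 to -4.27 in BRAFV600E, where 4 of 6 arrays were well above background. Acvrl1, the BMP9 receptor of endothelium, fell by 0.54 (SE 0.16, adjusted p = 0.0450 in limma), with overlap, and was called in 2 of the 12 fits that left out an array. Bambi, a pseudoreceptor that dampens both branches and a target of both, ranged from 0.02 through 0.55 to 0.76 in Cre control and from -1.24 through -0.59 to -0.53 in BRAFV600E. Its fall of 1.20 (SE 0.16, adjusted p = 0.000904 in limma) left a wide gap between the groups.

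None of the 5 receptor-activated and common Smads tested was called in limma, with 2 of 5 at an unadjusted p under 0.05. Of the 16 secreted antagonists and latency proteins, Fstl3, which binds activins, rose by 0.61 (SE 0.18, adjusted p = 0.0400 in limma) and was called in 3 of the 12 fits that left out an array, and Ltbp2, a matrix protein of the latent TGF-beta binding family, fell by 0.64 (SE 0.14, adjusted p = 0.0147 in limma). Of the 10 intracellular regulators, Tgif2, a repressor that binds Smads, fell by 0.63 (SE 0.14, adjusted p = 0.0152 in limma), and Zfyve9, which presents Smad2 and Smad3 to the receptor, fell by 0.57 (SE 0.14, adjusted p = 0.0233 in limma). Zfyve9 was not called without Cre control replicate 3 (adjusted p = 0.0539 in limma) or replicate 5 (adjusted p = 0.0516 in limma). Its other 2 probes gave -0.24 (SE 0.17) and -0.0031 (SE 0.24). The other 3 probes of Tgif2 gave -0.25 (SE 0.17), 0.31 (SE 0.23) and -0.10 (SE 0.22), so that 1 of its 4 probes went the other way. The second probe of Acvrl1 gave 0.11 (SE 0.28), also of opposite sign. With the mean over a gene's probes, Acvr1b, Acvrl1, Inhba, Tgif2 and Zfyve9 were not called, with limma adjusted p of 0.0808, 0.336, 0.0515, 0.352 and 0.208. For Inhba this mean held only the probe already used, since the other did not pass the filter on dim probes. With slide as a block Inhba, Acvr1b, Acvrl1, Fstl3, Ltbp2, Tgif2 and Zfyve9 were not called. Of the 8 target genes, Ccn2, a matricellular protein induced by TGF-beta and by other signals, ranged from -1.61 through -1.25 to -0.42 in Cre control and from 0.16 through 0.56 to 1.26 in BRAFV600E. It rose by 1.79 (SE 0.25, adjusted p = 0.00103 in limma), or 3.45-fold, with no overlap.

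**Figure D4:**
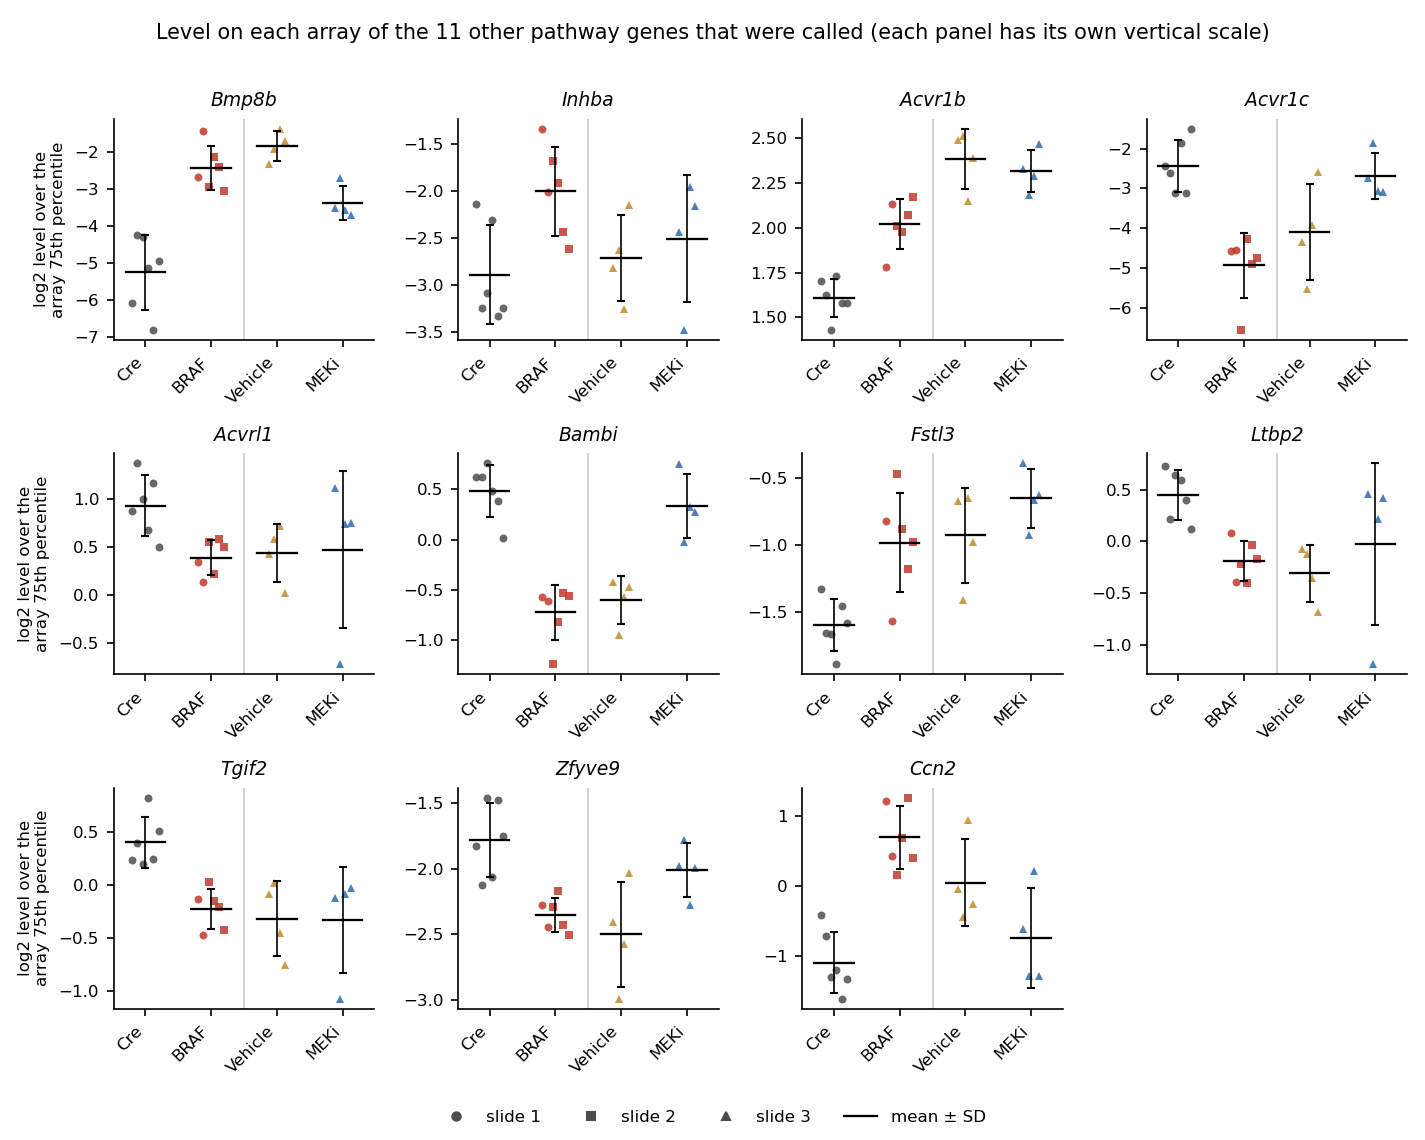
Level on each of the 20 arrays of the 11 other pathway genes that were called, as log2 intensity over the 75th percentile of the array (vertical axes, a separate scale for each gene), by group. Points are arrays, their shapes give the slide, and bars give the group mean ± SD. Bambi lay above 0 on all Cre control arrays and below 0 on all BRAFV600E and Vehicle arrays, and MEKi replicate 2 stood low for Acvrl1, Ltbp2 and Tgif2.

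In the comparison of MEKi with Vehicle, 66 of the 73 genes were tested and 1 was called (1.52%, against 1.98% of all genes). Bmp8b had levels between -2.34 and -1.38 in Vehicle and between -3.72 and -2.70 in MEKi, and fell by 1.54 (SE 0.28, adjusted p = 0.0366 in limma), with no overlap. It was called in 2 of the 8 fits that left out an array and was not called with Y-linked signal as a covariate (adjusted p = 0.152 in limma). Bambi had levels of -0.42, -0.95, -0.57 and -0.48 on the Vehicle arrays and of 0.75, -0.02, 0.32 and 0.27 on the MEKi arrays. All MEKi arrays lay above all Vehicle arrays, by 0.93 on average (SE 0.20), and the adjusted p of 0.0577 in limma was just over the threshold. It was 0.0457 without MEKi replicate 2. Acvr1c differed by 1.41 (SE 0.58, adjusted p = 0.281 in limma) and Ccn2 by -0.79 (SE 0.41, adjusted p = 0.404 in limma), both with overlapping groups. The median log2 difference of the 66 genes was 0.06, against 0.04 over all genes. Of the 65 genes of the list tested in both comparisons, 42 (64.6%) had opposite signs, against 70.2% of all genes.

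**Figure D5:**
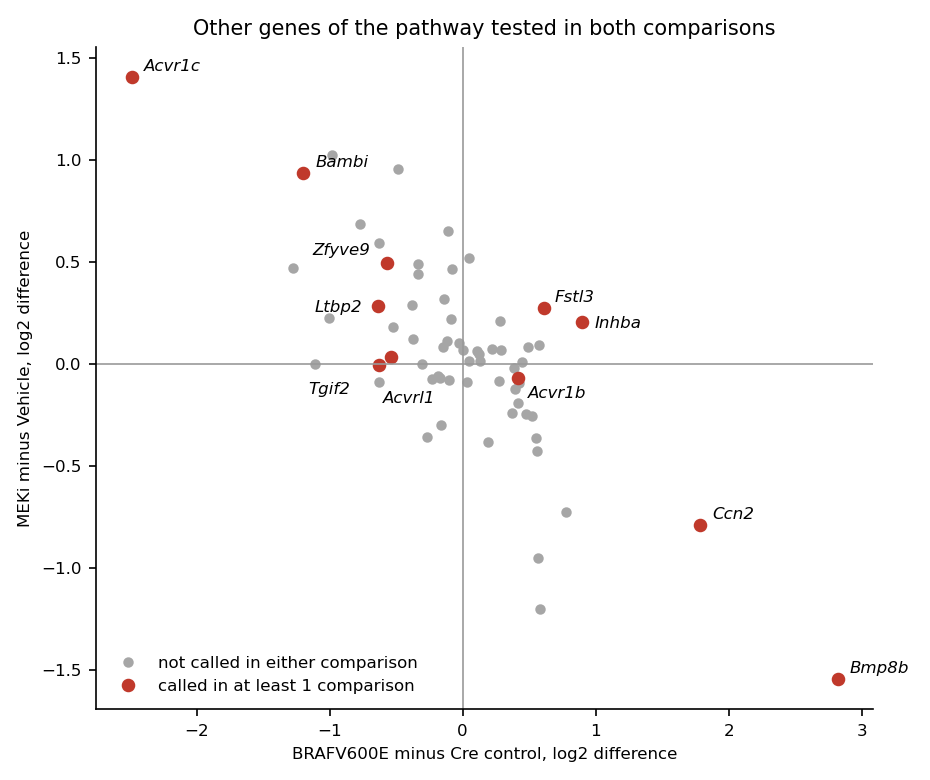
Log2 difference of the 65 other pathway genes tested in both comparisons, BRAFV600E minus Cre control (horizontal axis) against MEKi minus Vehicle (vertical axis). Red points were called in at least 1 comparison and are named. Bmp8b lies at the lower right, at 2.82 and -1.54, and Acvr1c and Bambi at the upper left, at -2.49 and 1.41 and at -1.20 and 0.93.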

How the data were processed

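RNA of intestinal tissue from 20 mice was hybridised to one-colour Agilent arrays, 1 for each mouse. Per the file headers, the authors used Agilent Feature Extraction 10.5.1.1, which subtracted background and wrote a processed intensity for every spot, linear and not normalized between arrays. The deposited series matrix held this same intensity (100% of spots within 0.5%). The alternative without scaling used the processed intensity of the scanner files. The deposited 0 or 1 marks for above background and outlier were used as filters, and the saturation mark was not. Groups came from the labels, of which the treatment text was not used, since it is identical for every array and matches no group.

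Control and outlier spots were removed, log2 values were taken, each array's 75th percentile was subtracted, and copies of a probe were averaged. RefSeq (GRCm38.p6) named 34023 probes by accession, 9993 by symbol and 318 by an older name, while 12271 stayed unnamed and untested. All 10 members matched. A gene was represented by its probe of highest mean over all arrays, and tested where that probe exceeded background clearly on 50% or more of a comparison's arrays. limma 3.58.1 (lmFit and eBayes, two-sided, no covariate) in R 4.3.3 was run separately for each comparison, with Benjamini-Hochberg adjustment over all genes tested and a threshold of 0.05. The fit was tested on simulated data. The members, the pathway list and the marker lists were chosen with earlier results of these data known. The text names all members, with every probe, and each gene of the pathway list that was called. Etv4 was chosen after its values were seen. The result of 1 marker is not reported here.

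Replicate numbers follow the accession order and are only names. The alternatives were normexp background (offset 50), quantile normalization, no scaling, no filter or a stricter one on dim probes, the mean over a gene's probes, every probe tested, all 20 arrays in one fit, array weights, Y-linked signal as a covariate, slide as a block, slide 1 alone, and each array left out. The number of arrays limits the precision. Probe coordinates are on mm9, and the annotation of exons and UTRs at these positions was not used here.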

Additional observations from a re-analysis of the deposited data

Results flagged for a closer look

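Groups of arrays were examined for the 10 genes and the 11 other named pathway genes, in 4 groups each, or 84 in all. Of these, 4 held an array that stood apart from the rest by Dixon's test at the 95% level. The groups are not independent, since the same arrays recur across genes, and this number was not set against chance. Bmp2 was -1.08 on BRAFV600E replicate 1, against 0.04 to 0.70 on the other 5 arrays. Acvr1c was -6.55 on BRAFV600E replicate 3, against -4.89 to -4.27. Ltbp2 was -1.19 on MEKi replicate 2, against 0.21 to 0.46 on the other 3 arrays, and Tgif2 on the same array was -1.07, against -0.12 to -0.02.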

How the results depend on the processing

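No paired analysis was possible because the replicate numbers were given in accession order and pair no arrays. The number of mice limits the precision in both comparisons.

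In BRAFV600E against Cre control, 1 of the 10 genes was called as reported. The number was 2 with normexp background and 2 with all 20 arrays in one fit (Bmpr1a and Smad6 in both), 5 without scaling (Bmp7, Bmpr1a, Id1, Smad7 and Tgfb1) and 0 within slide 1. It was 1 with slide as a block (Smad6) and 1 with the mean over a gene's probes (Id2), so that Bmpr1a was not called there. Leaving out 1 array gave 1 to 2, the higher number without BRAFV600E replicate 5, where Id2 was called too. Of the pathway list 11 genes were called, against 20 with normexp background, 28 without scaling, 7 without a filter, 18 with array weights, 5 with slide as a block, 4 within slide 1 and 6 to 12 without 1 array, the number being under 11 by more than 1.5 times without Cre control replicate 2, 3 or 5 and without BRAFV600E replicate 4. Over all genes 2372 were called, against 4648 with normexp background, 9340 without scaling, 3747 with array weights, 1533 with slide as a block, 734 within slide 1 and 1441 to 2863 without 1 array, the lowest without Cre control replicate 3.

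In MEKi against Vehicle, 0 of the 10 genes were called in limma in all settings except array weights, which gave 2 (Id2 and Smad6). Without 1 array the range was 0 to 0. Of the pathway list 1 gene was called, against 2 with normexp background, 2 with the stricter filter, 3 with array weights, 0 without scaling, 0 without a filter, 0 with every probe tested, 0 with the Y-linked covariate and 0 to 2 without 1 array. Over all genes 380 were called, against 74 without scaling, 234 without a filter, 237 with every probe tested, 1230 with array weights, 53 with the Y-linked covariate and 76 to 376 without 1 array, the lowest without MEKi replicate 1.

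The median of all genes in BRAFV600E against Cre control was 0.79 without scaling and -0.13 with normexp background, against -0.017 as reported. Without scaling, the log2 differences of Bmp2 (0.20), Bmp4 (0.66), Bmp7 (0.76), Id2 (0.30), Id3 (0.66), Smad6 (0.33), Acvrl1 (0.27), Ltbp2 (0.17), Tgif2 (0.18) and Zfyve9 (0.24) turned positive, all below that median. With slide as a block, Id1 (-0.080), Smad7 (-0.12) and Tgfb1 (-0.38) turned negative, and the values within slide 1 were the same. Other changes of sign in this comparison were those of Bmp4 with the mean over probes (0.070), Bmp7 with normexp background (0.047) and Tgfb1 with normexp background (-0.096) and array weights (-0.00056). Without 1 array Bmp7 was -0.12 to 0.021 and Tgfb1 -0.070 to 0.098. In MEKi against Vehicle, Bmp4 changed sign with quantile normalization (0.0029), the mean over probes (0.0092), array weights (0.26) and the Y-linked covariate (0.028). So did Tgfb1 (0.12) and Tgif2 (0.17) with array weights, Acvr1b with array weights (0.0030) and the Y-linked covariate (0.0012), and Acvrl1 with the Y-linked covariate (-0.079). Without 1 array Bmp4 was -0.20 to 0.36, Tgfb1 -0.28 to 0.14, Acvrl1 -0.18 to 0.43 and Tgif2 -0.15 to 0.24. The cause was not tested.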
